A study of Chlamydomonas reinhardtii with 6 samples.

Results

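The 10 genes described here encode Rubisco small subunits and enzymes of the Calvin-Benson cycle in the unicellular green alga Chlamydomonas reinhardtii: RBCS1, RBCS2, RCA1, PRK1, GAP3, SEBP1, FBP1, PGK1, FBA3 and TRK1. They were taken by identifier from the 17736 gene models of the deposited table, and were chosen with earlier results of these data known. RNA was sequenced from 3 replicates of a knockout of CMD1 (cmd1 KO) and 3 replicates of the wild type (WT), called biological replicates in the labels, both labelled as strain CC125. CMD1 is a homolog of the TET dioxygenases, which oxidise methylated cytosine in animal DNA, and the study asked how its loss altered gene expression. Cells of both genotypes were grown with acetate at 25 °C in dim light (20 µmol photons per m2 and second), then placed in Sueoka's high salt medium under a light intensity of 300 µE. The labels do not state how long the exposure lasted, on which day each replicate was taken or whether the knockout is 1 clone. CMD1 itself was not analysed here, so the genotype labels were taken as given.

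The Calvin-Benson cycle fixes CO2 in the chloroplast stroma with the ATP and NADPH made by the light reactions. Rubisco, built from large subunits encoded in the chloroplast genome and small subunits encoded in the nucleus, joins CO2 to ribulose bisphosphate. The product is phosphorylated and reduced to triose phosphate, and most of the triose phosphate is used to regenerate ribulose bisphosphate. In this alga Rubisco is packed into the pyrenoid, and several enzymes of the cycle are switched on in the light through reduction by thioredoxin.

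RBCS1 (Cre02.g120100.v5.5) and RBCS2 (Cre02.g120150.v5.5), the Rubisco small subunit genes, lay side by side on chromosome 2 (v5.5), from 6936683 to 6941921 and from 6941968 to 6943439, with 46 bases between the gene models. Their coding sequences are known to be nearly identical, so counts assigned to one can include reads of the other. The RBCS1 model spanned 5239 bases against 1472 for RBCS2, while the lengths behind the deposited values were 1257 and 756 bases. The other 8 genes were spread over chromosomes 1, 2, 3, 4, 5, 11 and 12, with PRK1 and FBP1 on chromosome 12 and TRK1 far from the RBCS pair on chromosome 2. Their lengths in the deposited values ran from 1604 bases for SEBP1 to 3079 for TRK1.

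The libraries held 38875025 to 47869886 counts in cmd1 KO and 39072635 to 45087656 in WT. Each gene had at least 4313 counts in every library, so the counting error was 0.191% to 1.52% of a value. The libraries numbered 3 stood apart in both genotypes. The chi-square per degree of freedom over all genes was 10.9 between cmd1 KO replicates 1 and 2 and 24.4 between WT replicates 1 and 2. Between replicate 3 and the other libraries of its genotype it was 802 to 890 in cmd1 KO and 438 to 451 in WT. Between cmd1 KO and WT libraries of the same number it was 518, 434 and 112 for replicates 1, 2 and 3. The libraries numbered 3 were thus closer to each other than to the other libraries of their own genotype. Values are therefore given for replicates 1, 2 and 3 in that order. In cmd1 KO most genes also held a smaller share of the counts than in the WT library of the same number, 89.4%, 86.6% and 76.8% of the 10878 tested genes (those averaging 1 FPKM or more) in pairs 1, 2 and 3. The scaling between libraries thus moves every value. With trimmed mean of M-values (TMM) factors, which place the bulk of genes level, the median log2 ratio of cmd1 KO over WT was -0.06, -0.09 and -0.01 in the 3 pairs, and with library sizes alone it was -1.41, -1.50 and -0.33. FPKM corrects for gene length and library size and CPM for library size and TMM factors. Fitted differences carry TMM scaling unless stated otherwise. In RNA of a whole culture, fewer cells with a transcript and less transcript per cell cannot be told apart.

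Together the 10 genes held 0.339%, 0.363% and 1.77% of all counts in the 3 cmd1 KO libraries and 1.30%, 1.24% and 1.68% in the 3 WT libraries. Replicates 1 and 2 of cmd1 KO thus lay far below every WT library, and replicate 3 lay slightly above them. These shares carry library sizes alone, under which the median tested gene also had log2 ratios of -1.41 and -1.50 in pairs 1 and 2. The order of levels per length was shared by all 6 libraries at the top, with RBCS2 the highest, followed by RBCS1, FBA3 and GAP3. RBCS2 stood at rank 110, 108 and 17 among all genes in cmd1 KO replicates 1, 2 and 3 and at rank 52, 53 and 21 in WT. In WT, RBCS1 at 1200 ± 76.5 FPKM and FBA3 at 1053 ± 71.3 FPKM (SD, n = 3) were close, although the lowest RBCS1 value lay above the highest FBA3 value. SEBP1 at 343.0 ± 9.08, TRK1 at 342.7 ± 71.4, PRK1 at 299 ± 90.9 and RCA1 at 280 ± 30.8 FPKM followed GAP3 in WT, each overlapping the next. FBP1 at 222 ± 49.2 and PGK1 at 160 ± 28.9 FPKM had the lowest WT means, with overlapping ranges. The WT range of FBP1 also overlapped those of RCA1 and PRK1.

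**Figure D1:**
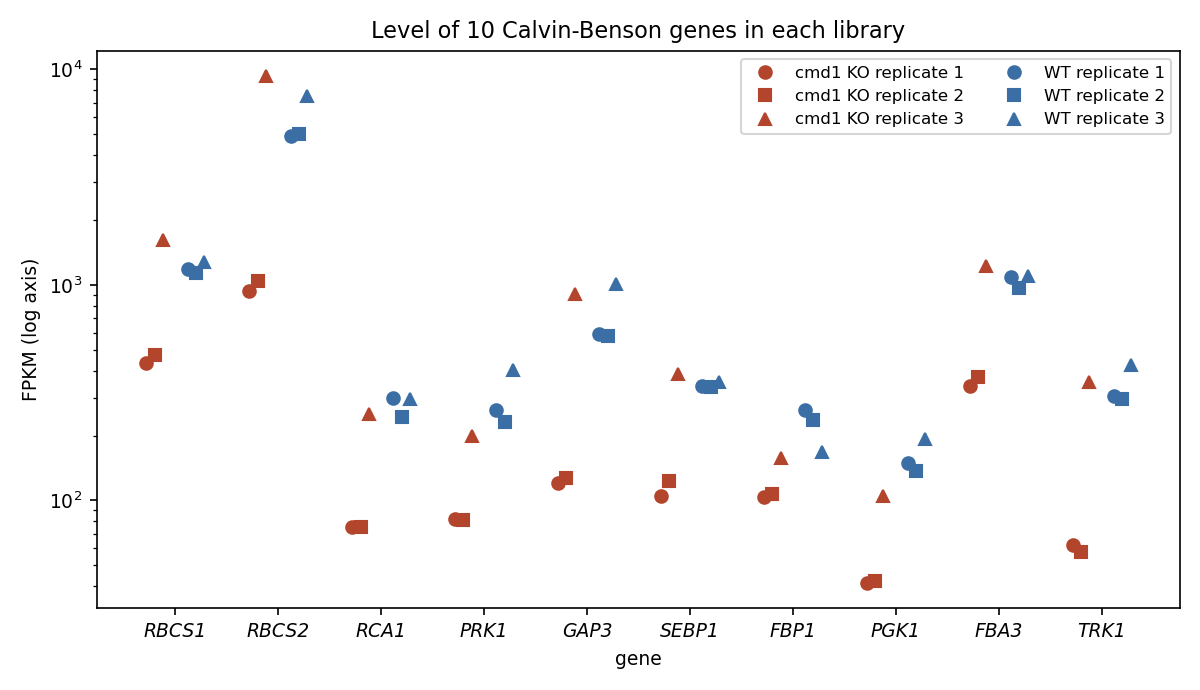
FPKM of the 10 genes (log axis) in each library, with the 3 cmd1 KO libraries left of the 3 WT libraries and the replicate number given by the marker. For RBCS2, cmd1 KO replicates 1 and 2 sit at 941 and 1041 FPKM and replicate 3 at 9319, while WT lies between 4927 and 7503.

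Over all 6 libraries none of the 10 genes passed the test for a genotype difference. edgeR's quasi-likelihood test gave them Benjamini-Hochberg adjusted p-values of 0.387 to 0.986, and it called 0.0% of the 10878 tested genes higher and 0.0% lower at an adjusted p of 0.05. None of the 10 had an unadjusted p under 0.05, against 9.14% of tested genes higher and 8.81% lower. DESeq2 likewise called none of the 10 (adjusted p of 0.362 to 0.935), against 3.79% of tested genes called higher and 2.54% lower. The median log2 difference of the 10 genes was -0.23, against -0.05 over all tested genes. With library sizes alone the median was -0.89 against -0.82, and PRK1, PGK1 and FBP1, 3 of the 10, had an unadjusted p under 0.05, all lower, against 14.8% of tested genes lower and 0.423% higher.

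Within replicates 1 and 2, 5 of the 10 genes fell in cmd1 KO and none rose: RBCS2, RCA1, GAP3, PGK1 and TRK1. edgeR called 37.8% of all tested genes lower and 34.3% higher in the same comparison, so a share of 5 in 10 stands beside a background in which most genes were called. With library sizes alone all 10 fell, against 79.2% of tested genes lower and 6.24% higher. The median log2 difference of the 10 genes was -0.32 under TMM and -1.71 under library sizes alone, against -0.07 and -1.46 over all tested genes. These calls rest on 2 libraries against 2 and on the small spread between them.

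RBCS2, the more abundant small subunit gene, was at 941, 1041 and 9319 FPKM in cmd1 KO, against 4927, 5035 and 7503 FPKM in WT. The cmd1 KO libraries lay on both sides of WT, with replicates 1 and 2 at 19.9% of the mean of the same WT replicates and replicate 3 at 124%. On the TMM scale RBCS2 had 1395, 1627 and 5163 CPM in cmd1 KO and 2878, 2972 and 3368 CPM in WT. In replicates 1 and 2 it fell by 0.96 on the log2 scale (SE 0.12, adjusted p = 2.06e-08 in edgeR). Over all 6 libraries the log2 difference was -0.17 (SE 0.57, adjusted p = 0.898 in edgeR), and leaving out cmd1 KO replicate 3 made it -1.02 (adjusted p = 0.0165). That fit keeps WT replicate 3, so a replicate 3 library is left in WT alone. It called 2255 of the 10878 tested genes lower and 1974 higher.

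RBCS1 was at 435, 472 and 1624 FPKM in cmd1 KO, against 1183, 1134 and 1284 FPKM in WT. After TMM scaling the genotypes overlapped, with 1073, 1225 and 1496 CPM in cmd1 KO and 1149, 1113 and 958 CPM in WT. The log2 difference within replicates 1 and 2 was 0.02 (SE 0.13, adjusted p = 0.908 in edgeR) and turned to -1.37 (adjusted p = 1.23e-09) with library sizes alone. The ratio of the 2 small subunit genes needs no scaling between libraries. RBCS1 amounted to 46.2%, 45.3% and 17.4% of the RBCS2 level per length in cmd1 KO, against 24.0%, 22.5% and 17.1% in WT. The genotypes differed in this ratio by 0.95 and 1.01 on the log2 scale in pairs 1 and 2, and by 0.03 in pair 3. Over the 3 replicates the ratio was 36.3% ± 16.4 in cmd1 KO and 21.2% ± 3.63 in WT (SD, n = 3 each), and every cmd1 KO value lay above the WT value of the same number (exact permutation test of the log2 ratios, two-sided, p = 0.3, where 0.1 is the smallest possible). The labels do not say how reads shared by both genes were assigned, and the part of that choice in the ratio was not tested.

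RCA1 (Cre04.g229300.v5.5) encodes Rubisco activase, which frees the active site of Rubisco from bound sugar phosphates. It was at 75.0, 75.6 and 251 FPKM in cmd1 KO and at 299, 244 and 296 FPKM in WT. Replicate 3 of cmd1 KO lay within the WT range and the other 2 libraries far below it. After TMM scaling RCA1 had 323, 342 and 403 CPM in cmd1 KO and 507, 418 and 385 CPM in WT. Within replicates 1 and 2 RCA1 fell by 0.48 on the log2 scale (SE 0.14, adjusted p = 0.00234 in edgeR). That difference was -0.35 without the filter on low values (adjusted p = 0.0469 in edgeR, close to the threshold) and -0.43 without cmd1 KO replicate 1. Over all 6 libraries the log2 difference of RCA1 was -0.30 (SE 0.30, adjusted p = 0.602). Its level relative to the summed small subunit genes was 5.45%, 4.99% and 2.29% in cmd1 KO, against 4.90%, 3.96% and 3.37% in WT. The means, 4.25% ± 1.71 and 4.07% ± 0.772 (SD, n = 3 each), differed by less than the spread (exact permutation test of the log2 ratios, two-sided, p = 1.0). This ratio was higher in cmd1 KO in pairs 1 and 2 and lower in pair 3.

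**Figure D2:**
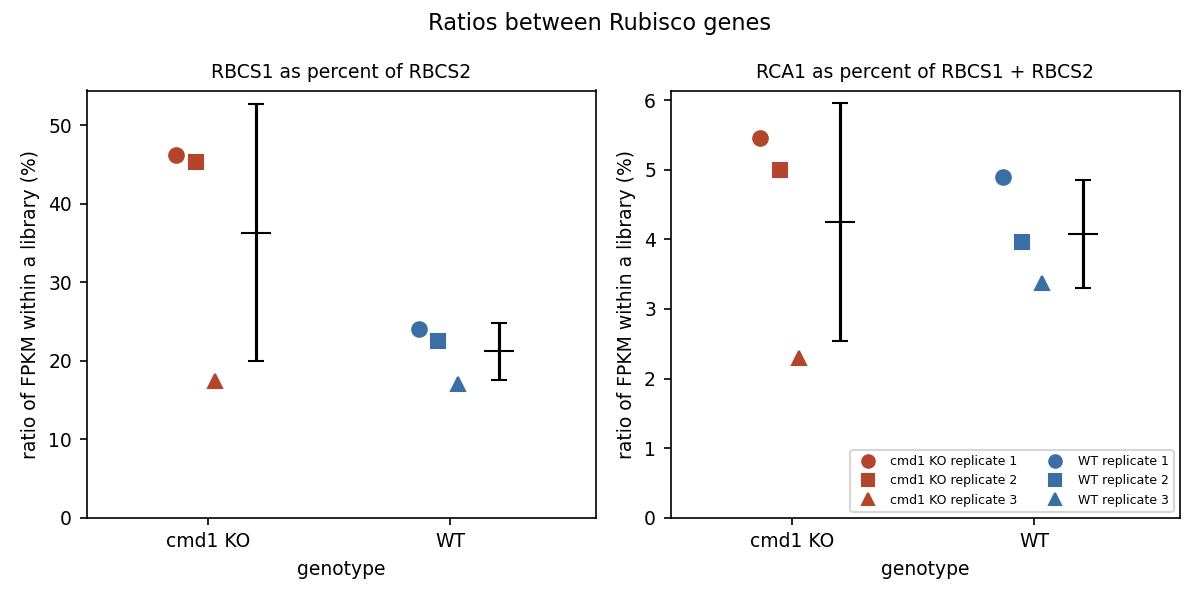
Ratio of FPKM within each library, as percent, for RBCS1 over RBCS2 (left) and RCA1 over summed RBCS1 and RBCS2 (right), with cmd1 KO left of WT; bars give the mean and SD over 3 libraries. On the left, cmd1 KO replicates 1 and 2 stand at 46.2% and 45.3% and the other 4 libraries between 17.1% and 24.0%.

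In the reduction steps, both PGK1 and GAP3 fell in replicates 1 and 2. In replicate 3 cmd1 KO held 54.4% of the WT FPKM of PGK1 and 90.1% of that of GAP3, or 67.2% and 111% on the TMM scale, so the scaling sets the direction for GAP3 there. PGK1 (Cre11.g467770.v5.5) encodes phosphoglycerate kinase, which phosphorylates the first product of carbon fixation. It was at 41.6, 42.1 and 105 FPKM in cmd1 KO and 149, 137 and 192 FPKM in WT. On the TMM scale it had 210, 224 and 197 CPM in cmd1 KO and 296, 275 and 293 CPM in WT, so the genotypes did not overlap under either scaling. Over all 6 libraries the log2 difference was -0.46 (SE 0.28, adjusted p = 0.387 in edgeR). Within replicates 1 and 2 PGK1 fell by 0.40 (SE 0.14, adjusted p = 0.00939 in edgeR). That call ended without the filter on low values (adjusted p = 0.116) and without cmd1 KO replicate 1 (adjusted p = 0.123), a fit that leaves 1 cmd1 KO library and assumes that it varies like the WT libraries.

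GAP3 (Cre01.g010900.v5.5) encodes the chloroplast glyceraldehyde phosphate dehydrogenase, which reduces the phosphorylated product with NADPH. It was at 120, 127 and 911 FPKM in cmd1 KO and at 594, 578 and 1011 FPKM in WT. Its TMM-scaled level was 624, 692 and 1765 CPM in cmd1 KO and 1213, 1192 and 1586 CPM in WT. Replicates 1 and 2 of cmd1 KO lay below every WT library on both scales, and replicate 3 lay within the WT range of FPKM and above that of CPM. Within replicates 1 and 2 GAP3 fell by 0.88 on the log2 scale (SE 0.13, adjusted p = 2.6e-07 in edgeR). Over all 6 libraries the log2 difference was -0.37 (SE 0.49, adjusted p = 0.695 in edgeR). It became -1.02 without cmd1 KO replicate 3 (adjusted p = 0.0223), in the fit that keeps WT replicate 3. Without cmd1 KO replicate 1 or 2 it was -0.10 and -0.14 (adjusted p = 0.968 and 0.959).

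Among the regeneration enzymes, TRK1 fell in replicates 1 and 2, while PRK1 was lower in all 3 pairs without a call on the TMM scale. TRK1 (Cre02.g080200.v5.5), transketolase, moves carbon units between sugar phosphates. It was at 62.1, 57.6 and 356 FPKM in cmd1 KO, against 306, 297 and 425 FPKM in WT. On the TMM scale TRK1 had 375, 367 and 802 CPM in cmd1 KO and 728, 714 and 777 CPM in WT. Its log2 difference was -0.96 within replicates 1 and 2 (SE 0.13, adjusted p = 7.55e-08 in edgeR) and -0.52 over all 6 libraries (SE 0.41, adjusted p = 0.497). The latter became -0.996 without cmd1 KO replicate 3 (adjusted p = 0.0138), in the fit that keeps WT replicate 3.

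PRK1 (Cre12.g554800.v5.5), phosphoribulokinase, makes ribulose bisphosphate and has no known role outside the cycle. It was at 81.8, 81.0 and 198 FPKM in cmd1 KO and at 263, 232 and 403 FPKM in WT. On the TMM scale PRK1 had 345, 360 and 312 CPM in cmd1 KO and 437, 390 and 514 CPM in WT, again with no overlap. The pair ratios were -0.34, -0.11 and -0.72 on the log2 scale under TMM. Under library sizes alone they were -1.70, -1.53 and -1.03. Neither all 6 libraries (log2 difference -0.40, SE 0.29, adjusted p = 0.471 in edgeR) nor replicates 1 and 2 (-0.24, SE 0.13, adjusted p = 0.116) gave a call on the TMM scale, and with library sizes alone replicates 1 and 2 gave -1.62 (adjusted p = 5.83e-10). Without WT replicate 2 the difference within replicates 1 and 2 was -0.31 (adjusted p = 0.0319 in edgeR), a fit that leaves 1 WT library and assumes that it varies like those of cmd1 KO. PRK1 and PGK1, 2 of the 10 genes, were lower in cmd1 KO with no overlap between genotypes on the TMM scale, against 13.6% of tested genes that lay lower and 9.43% that lay higher without overlap. On the FPKM scale PRK1, PGK1 and FBP1, 3 of 10, lay lower without overlap, against 29.7% of tested genes lower and 1.08% higher.

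FBA3 (Cre05.g234550.v5.5), the aldolase that joins triose phosphates, was at 339, 372 and 1226 FPKM in cmd1 KO and at 1089, 970 and 1098 FPKM in WT. SEBP1 (Cre03.g185550.v5.5), sedoheptulose bisphosphatase, was at 105, 123 and 386 FPKM in cmd1 KO and at 338, 337 and 353 FPKM in WT. In FPKM of both genes cmd1 KO replicate 3 lay above every WT library and the other 2 lay far below. On the TMM scale FBA3 had 1602, 1848 and 2162 CPM in cmd1 KO and 2024, 1822 and 1567 CPM in WT. SEBP1 had 330, 407 and 453 CPM in cmd1 KO and 419, 422 and 337 CPM in WT. There the genotypes overlapped for both genes, with cmd1 KO replicate 2 within the WT range and replicate 3 still above it. Replicate 1 of cmd1 KO lay within the WT range for FBA3 and below it for SEBP1. With TMM scaling the log2 differences within replicates 1 and 2 were -0.16 for FBA3 (SE 0.12, adjusted p = 0.238 in edgeR) and -0.20 for SEBP1 (SE 0.14, adjusted p = 0.198).

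FBP1 (Cre12.g510650.v5.5), the chloroplast fructose bisphosphatase, had its lowest TMM-scaled values of both genotypes in replicate 3. It was at 104, 107 and 157 FPKM in cmd1 KO and at 262, 237 and 167 FPKM in WT. On the TMM scale FBP1 had 384, 416 and 217 CPM in cmd1 KO and 381, 348 and 187 CPM in WT, so both libraries numbered 3 lay below all others. Replicate 3 minus the mean of replicates 1 and 2 was -0.88 in cmd1 KO and -0.96 in WT on the log2 TMM scale, the lowest of the 10 genes in each genotype. With library sizes alone these were 0.59 in cmd1 KO and -0.57 in WT. The genotype difference within replicates 1 and 2 was 0.13 (SE 0.13, adjusted p = 0.396 in edgeR), or -1.26 (adjusted p = 2.25e-08) with library sizes alone.

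**Figure D3:**
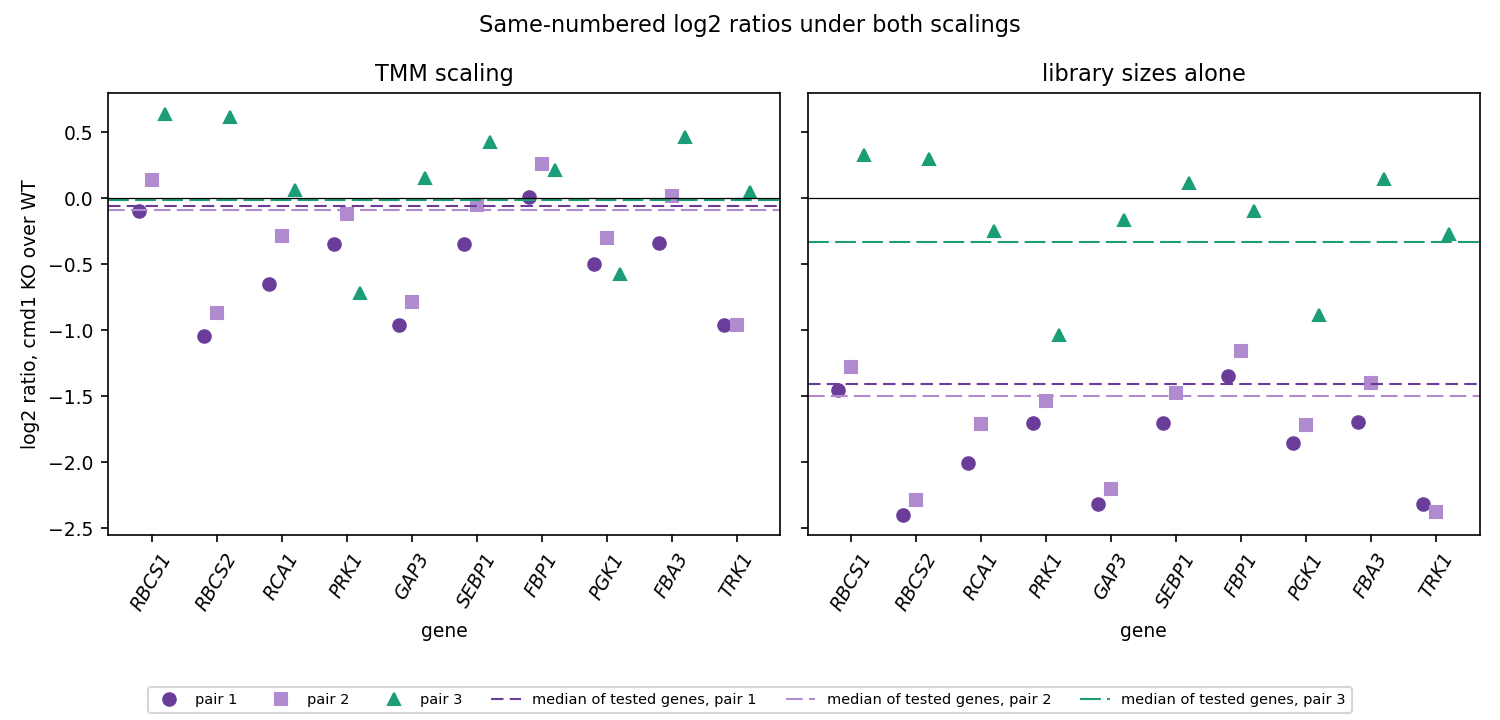
Log2 ratio of cmd1 KO over WT in each same-numbered pair for the 10 genes, with TMM scaling (left) and library sizes alone (right); dashed lines give the median of all 10878 tested genes per pair. On the left, RBCS2, GAP3 and TRK1 lie between -1.04 and -0.78 in pairs 1 and 2 and between 0.05 and 0.62 in pair 3, and PRK1 and PGK1 lie below 0 in all 3.

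The ratio of cmd1 KO to WT in pair 3 lay above that in pairs 1 and 2 by more than the spread between replicates 1 and 2 for 6 genes: RBCS1, RBCS2, GAP3, SEBP1, FBA3 and TRK1. This is what edgeR's interaction test measures here. Replicate 3 has 1 library per genotype, which the test assumes to vary like replicates 1 and 2, so a different genotype effect and variation between single libraries cannot be told apart. The test called 27.3% of tested genes more positive and 23.4% more negative, 50.7% in all. The difference was largest for RBCS2, at 1.57 on the log2 scale (SE 0.21, adjusted p = 1.45e-06), followed by GAP3 at 1.02 (SE 0.22, adjusted p = 0.000446) and TRK1 at 1.01 (SE 0.23, adjusted p = 0.000728). For RBCS1, SEBP1 and FBA3 it was 0.62 each (adjusted p = 0.0227, 0.0372 and 0.0208), and these 3 calls ended without cmd1 KO replicate 1 (adjusted p = 0.088, 0.173 and 0.0746), that of SEBP1 also without the filter on low values (adjusted p = 0.0562). PRK1 gave -0.49 (adjusted p = 0.0882 in edgeR) and PGK1 -0.17 (adjusted p = 0.568), both turning positive with library sizes alone, at 0.59 (adjusted p = 0.0296) and 0.90 (adjusted p = 0.00246). RCA1 at 0.54 and FBP1 at 0.08 were not called on the TMM scale either. Leaving out 1 library of replicates 1 and 2 gave 0.40 to 0.68 for RCA1 and -0.58 to -0.40 for PRK1. With library sizes alone all 10 were called more positive, against 58.8% of tested genes more positive and 5.82% more negative.

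In pattern, 5 of the 10 genes were lower in cmd1 KO in pairs 1 and 2 and higher in pair 3 with TMM scaling, namely RBCS2, RCA1, GAP3, SEBP1 and TRK1, against 18.7% of tested genes. With library sizes alone it was 4 of 10, RBCS1, RBCS2, SEBP1 and FBA3, against 17.1%. Lower in all 3 pairs were 2 of 10 with TMM scaling, against 28.7% of tested genes, and 6 of 10 with library sizes alone, against 68.3%. FBP1 was higher in all 3 with TMM scaling, against 25.6% of tested genes, and none of the 10 was with library sizes alone, against 3.89%. Some of these signs rest on small log2 ratios. With TMM scaling FBP1 was at 0.009 in pair 1 and SEBP1 at -0.05 in pair 2. TRK1 and RCA1 were at 0.05 and 0.06 in pair 3. RBCS1 and RBCS2 were higher in cmd1 KO in pair 3 under both scalings, by 0.64 and 0.62 under TMM and by 0.33 and 0.30 under library sizes alone, values that exceeded those of 91.0% and 90.3% of tested genes in that pair. PRK1 and PGK1 stood at the other end of pair 3, above 9.71% and 13.7% of tested genes. These positions rest on a single library per genotype.

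Levels were also taken relative to the geometric mean of the 10 genes in the same library, a measure that needs no scaling between libraries. By this measure the make-up of the 10 transcripts was not the same in pairs 1 and 2 as in pair 3. The differences balance out over the 10 genes by construction, so a rise of some entails a fall of others. Gene length, which moved with the ratios in these libraries, was not taken out. These differences were not tested. In pairs 1 and 2, the relative levels of RBCS2, GAP3 and TRK1 in cmd1 KO minus WT averaged -0.55, -0.46 and -0.55 on the log2 scale, and those of FBP1 and RBCS1 averaged 0.54 and 0.43. In pair 3 the differences of PRK1 and PGK1 were -0.85 and -0.71, and those of RBCS1 and RBCS2 were 0.51 and 0.48. RBCS1, SEBP1, FBP1 and FBA3 kept a positive sign in all 3 pairs, and the differences for RCA1 lay between -0.13 and 0.01. The RBCS genes together made up 59.7%, 60.6% and 75.3% of the summed FPKM of the 10 genes in cmd1 KO, against 64.9%, 67.0% and 69.0% in WT.

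**Figure D4:**
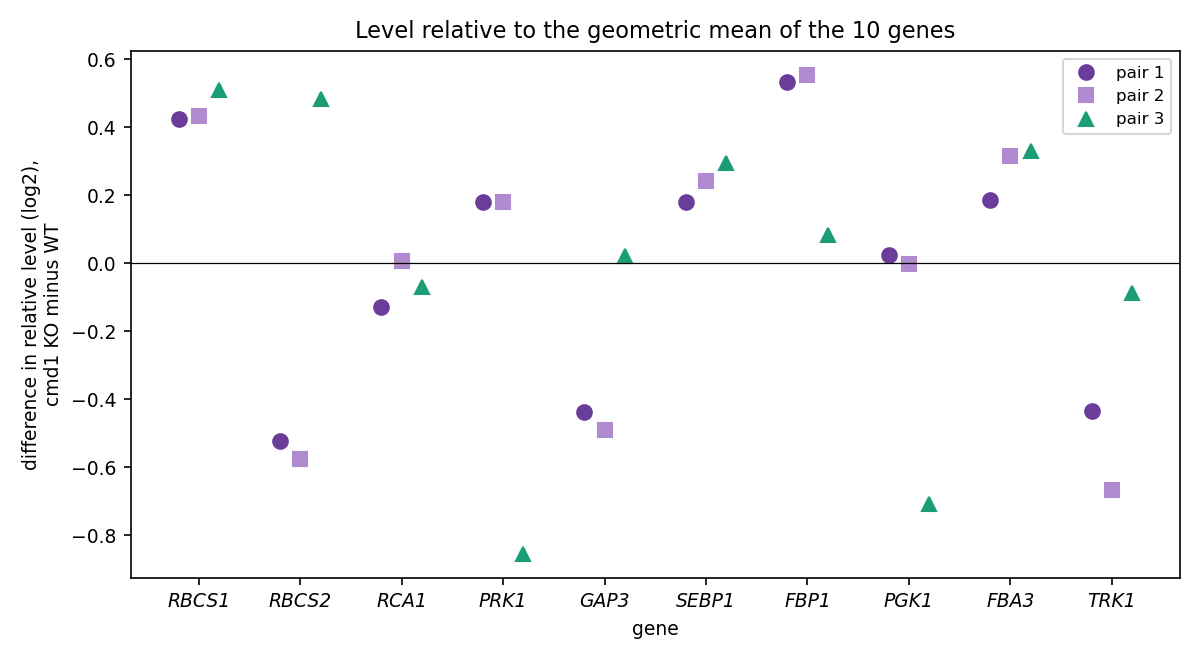
Difference between cmd1 KO and WT, per same-numbered pair, in the level of each gene relative to the geometric mean of the 10 genes in its library (log2 of FPKM). Pairs 1 and 2 fall close together for each gene, and RBCS2, PRK1 and PGK1 stand farthest from them in pair 3.

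Set beside other abundant transcripts, the 10 genes lay low in cmd1 KO replicates 1 and 2, a description with no test. Besides them, 345 tested genes had a WT mean at or above the 159.5 FPKM of PGK1, the lowest of the 10. With TMM scaling the median log2 ratio of these 345 genes was 1.13, 1.37 and 0.41 in pairs 1, 2 and 3, against -0.42, -0.20 and 0.19 for the 10 genes. All 10 lay below the median of the 345 in pairs 1 and 2, and 6 did in pair 3. With library sizes alone the medians of the 345 were -0.22, -0.05 and 0.09, and those of the 10 genes were -1.78, -1.62 and -0.13. Gene length moved with the ratios in these libraries, and its part in the result was not tested. RBCS1 and RBCS2 belong to the shortest of 5 equal length classes, whose median log2 ratio with TMM scaling was 0.87 and 1.09 in pairs 1 and 2, while RBCS2 stood at -1.04 and -0.87 and RBCS1 at -0.10 and 0.14. TRK1 belongs to the class next to the longest, whose medians were -0.48 and -0.61, while TRK1 stood at -0.96 in both pairs. In the middle class, with medians of -0.04 and -0.07, GAP3 stood at -0.96 and -0.78, RCA1 at -0.65 and -0.29, PGK1 at -0.50 and -0.30, PRK1 at -0.34 and -0.11 and FBA3 at -0.34 and 0.02. SEBP1 and FBP1 belong to the class next to the shortest, with medians of 0.39 and 0.49, and stood at -0.34 and -0.05 and at 0.01 and 0.26.

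Across the 6 libraries, 2 genes outside the set, Cre02.g078100 and Cre16.g661626, had log2 CPM patterns most like that of RBCS2, with Pearson's r of 0.994 and 0.992. Of the 10878 tested genes, 289 outside the set reached an r of at least 0.95. Within the set GAP3 (r = 0.978) and TRK1 (r = 0.932) were most like RBCS2, RBCS1 had an r of 0.392 and FBP1 one of -0.745. Replicates 1 and 2 lay close together within each genotype, so these correlations describe few separate levels. The highest RBCS2 value was that of cmd1 KO replicate 3, at 5163 CPM on the TMM scale, against 3368 CPM in WT replicate 3.

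In the authors' deposited table all 10 genes had negative log2 fold changes, between -1.67 for TRK1 and -0.80 for RBCS1, with a median of -1.37 against -1.22 over all 17736 genes of that table. Of the 10 genes, 9 had in the authors' deposited table an unadjusted p under 0.05, with RBCS1 the exception at p = 0.0622, and the same held for 51.4% of all genes as lower and 1.54% as higher. The smallest p-values among the 10 in the authors' deposited table were 0.00032 for PRK1 and 0.000827 for PGK1, with log2 fold changes of -1.41 and -1.48. Adjusted over all genes by Benjamini-Hochberg, the p of PRK1 in the authors' deposited table became 0.0541, which no gene was below. The log2 fold changes of the authors' deposited table differed by at most 1.87e-05 from an edgeR fit that used library sizes without TMM factors and had replicate 3 as a term. With TMM factors and that term in edgeR the 10 genes had a median log2 difference of -0.34 and adjusted p-values of 0.125 to 0.962.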

How the data were processed

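RNA-seq libraries of 3 cmd1 KO and 3 WT replicates were made from Trizol-extracted total RNA with a stranded kit, per the labels' protocols. FastQC 0.11.5, TopHat2 and Cufflinks 2.0.0 are named per the submitters' processing notes; no label names the read counter, its strand setting or the genome build. The authors deposited unnormalised whole-number counts for each gene, per the file headers. For each of the 10 genes, their deposited FPKM equalled those counts over 1 constant length and over the library total, within 0.01 base of a whole length. The deposited log2 fold change and log2 CPM, the F score and the unadjusted p-value are the authors' own comparison, per the file headers.

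Genes were taken by identifier. The symbols of the 10 genes came with the list of their identifiers and were not checked against an annotation. The deposited values carry no symbols. The RefSeq annotation of the v5.5 assembly matched 17733 of 17736 identifiers and all 10 genes and gave the coordinates. It has 0 symbols other than locus tags. For the same reason a list of 12 further cycle and Rubisco loci was not analysed here. The 10 genes and the tests were chosen with earlier results of these data known. All genes named are the 10, plus the 2 identifiers most like RBCS2.

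edgeR 4.0.16 (glmQLFit and glmQLFTest, two-sided, TMM factors, genotype alone) was fitted to the 10878 genes whose mean reached 1 FPKM, with Benjamini-Hochberg adjustment. All 10 genes passed that filter. The SE is the log2 difference divided by the square root of F. Further fits took replicates 1 and 2 alone, and an interaction of genotype with replicate 3. DESeq2 1.42.0 and limma 3.58.1 under R 4.3.3 were alternatives. DESeq2 left 280 adjusted p-values as NA. Pair ratios are differences of log2 CPM (prior count 1). Ratios between genes were tested by exact permutation in scipy 1.17.1. The set of abundant genes, the levels relative to the 10 genes and the match to the authors' values were added once the data had been seen. The code of the fits was checked on simulated counts. Counting errors cover counting alone. Numbers were checked for pairing: deviations from the group means of same-numbered libraries correlated at 0.530, 0.427 and 0.547. The correlation was 0.479 between cmd1 KO replicate 1 and WT replicate 2 and 0.491 between cmd1 KO replicate 2 and WT replicate 1, so the values set replicate 3 apart and do not tell numbers 1 and 2 apart. Their pairing rests on the replicate numbers in the labels, which both genotypes share. The labels call the replicates biological, without naming separate cultures, and p-values measure the spread between these samples.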

Additional observations from a re-analysis of the deposited data

Results flagged for a closer look

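For 6 of the 10 genes the log2 ratio of cmd1 KO to WT in replicate 3 differed from that in replicates 1 and 2 by more than the spread between replicates 1 and 2 (edgeR interaction test), by 0.62 for RBCS1, 1.57 for RBCS2, 1.02 for GAP3, 0.62 for SEBP1, 0.62 for FBA3 and 1.01 for TRK1. All were more positive in replicate 3 under both scalings. The test assumes that the single replicate 3 libraries vary like replicates 1 and 2, so a different genotype effect and variation between single libraries cannot be told apart, and 50.7% of all tested genes passed it.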

How the results depend on the processing

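Over all 6 libraries edgeR called 0 of 10878 genes, as it did with library sizes alone, RLE factors, no filter, the replicate block (0 calls, smallest adjusted p 0.18), a term for replicate 3 and limma; DESeq2 called 688. Leaving out 1 library gave 0 to 4229 calls, the 4229 without cmd1 KO replicate 3 but with WT replicate 3. Within replicates 1 and 2 the count was 7853, and 6708 to 7563 without 1 library, where the lone library of an arm is assumed to vary like the others, as in the interaction test. The replicate block changed no call of the 10 genes. For all 6 libraries, library sizes alone turned the log2 differences of RBCS1, SEBP1, FBP1 and FBA3 to -0.52, -0.76, -0.87 and -0.71, limma on log2(FPKM + 1) to -0.79, -1.001, -0.85 and -0.97, and limma on log2(FPKM + 0.1) to -0.79, -1.01, -0.86 and -0.97. None of these passed. The FPKM carry library sizes alone, which sets that direction by construction. Leaving out 1 library gave ranges of -1.02 to 0.16 for RBCS2, -1.02 to -0.10 for GAP3, -0.996 to -0.31 for TRK1, -0.091 to 0.15 for SEBP1, -0.11 to 0.39 for FBP1 and -0.065 to 0.17 for FBA3. Within replicates 1 and 2, library sizes alone turned RBCS1 to -1.37 and FBP1 to -1.26, and leaving out 1 library gave RBCS1 -0.076 to 0.12. In the interaction test, library sizes alone turned PRK1 to 0.59 and PGK1 to 0.90. The RBCS1 to RBCS2 ratio kept its direction, with log2 differences of 0.42 to 1.12 without 1 library and 0.66 with the replicate block (exact p = 0.25, the smallest that 3 pairs allow). The RCA1 to RBCS ratio differed by -0.02 on the log2 scale, by -0.25 to 0.37 without 1 library and by 0.24 in replicates 1 and 2 alone. Each of the 10 genes had at least 4313 counts in every library, so the number of replicates, 3 per genotype, limits the precision more than depth.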
